A study of Mus musculus with 43 samples.

Results

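The cells described here were 23 neurons of the lateral nucleus accumbens that project to the ventral tegmental area (NAcLat→VTA cells), each taken from a mouse fed regular chow (REG). They were chosen by the diet label alone and make up 23 of the 43 sequenced cells of the series, the rest of which came from mice given a high-fat diet and are not compared here. C57BL/6J mice of both sexes received fluorescent retrobeads in the ventral tegmental area, and bead-labelled cells were patched in brain slices about a week later. The cells were first recorded in whole-cell mode, and their responses to injected current were measured. The cytosol of each cell was then drawn up through the recording pipette. Its polyadenylated RNA was amplified and sequenced as a library of its own. The REG mice had free access to standard chow. The labels put 13 REG cells in batch 1 and 10 in batch 2, and do not say what a batch is or which mouse gave which cell. The cells are therefore one group without known replicates, so levels are given as medians with the lowest and highest cell, detection is given as a share of cells with an exact (Clopper-Pearson) 95% interval, and no test was made. Those intervals cover counting error only and take the cells as independent, although the study drew them from fewer mice than cells. Amplified reads are not independent molecules either.

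The nucleus accumbens is built mainly of medium spiny neurons, inhibitory projection neurons that use GABA and read dopamine through cAMP signalling. Textbook descriptions divide them into a class with the D1 receptor, substance P and dynorphin, which reaches the midbrain directly, and a class with the D2 receptor, an adenosine receptor and enkephalin. Many also make a neuropeptide such as neurotensin, which is stored in dense-core vesicles and released beside GABA.

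Depth differed widely between cells. The total estimated count per REG cell ran from 176961 to 16919555 with a median of 1427698, and 6143 to 14279 genes were detected (a count above 0), with a median of 10222. Thinned to 150000 counts each, the cells held 4323 to 9295 genes with a median of 7799. *Lars2* alone took 2.33% to 48.5% of a cell's counts, with a median of 26.2%, and was the top gene in 22 cells. *Gm19220* was the top gene in REG cell 15, at 20.01% of its counts. Mitochondrially encoded genes took 0.139% to 6.31%, and REG cells 16 and 17 held the largest shares at 6.31% and 5.76%. REG cell 14 stood apart by its depth of 16919555 counts and by the lowest *Lars2* share. No 2 cells had identical values. Spearman's rho between cells over genes that passed the expression filter had a median of 0.330 over 253 pairs, with a range of 0.230 to 0.558. Genes within a cell are not independent, and each rho reflects the depth of both libraries.

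The cells carried the transcripts of GABAergic medium spiny neurons. *Ppp1r1b*, which encodes the dopamine- and cAMP-regulated phosphoprotein DARPP-32, was detected in 23 of 23 cells (100%, 95% interval 85.2% to 100%), with a lowest value of 274 CPM (the count divided by the cell's total count and multiplied by 1000000), a median of 1159 and a highest value of 2489. *Gad1*, which encodes a GABA-synthesising enzyme, ran from 17.6 to 1072 CPM with a median of 378. *Gad2*, the second such enzyme, ran from 62.5 to 700 CPM with a median of 325. *Drd1*, the D1 dopamine receptor, ran from 0.721 to 757 CPM with a median of 201. These 4 genes were present in all 23 cells, and *Drd1* was the only one of them with values under 15 CPM, in 3 cells. *Nts*, the neurotensin precursor, had a count in 22 of 23 cells (95.7%, 78.1% to 99.9%) and ran from 0 to 3107 CPM with a median of 285. Its quartiles were 24.4 and 1011 CPM. REG cells 2, 4, 5 and 9 were the highest, at 2079 to 3107 CPM, whereas 5 cells lay under 15 CPM. The median of *Nts* was 606 CPM with *Lars2* and *Gm19220* left out of the totals, and that of *Drd1* was 332 CPM. Leaving out any 1 of REG cells 1, 3, 7, 11, 12, 15, 16, 17, 20, 22 and 23 put the *Nts* median at 437 CPM. In GRCm38, GENCODE places *Ppp1r1b* at chr11:98348404-98357796 on the plus strand, *Gad1* at chr2:70553072-70602014 on the plus strand, *Gad2* at chr2:22622205-22693874 on the plus strand, *Drd1* at chr13:54051183-54055705 on the minus strand and *Nts* at chr10:102481756-102490486 on the minus strand. *Nts* and *Drd1* overlap no other annotated gene, whereas *Gad1* and *Ppp1r1b* each overlap a noncoding gene on the opposite strand, whose reads would be told apart only with strand information, and *Gad2* overlaps 2 microRNA genes on its own strand.

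**Figure D1:**
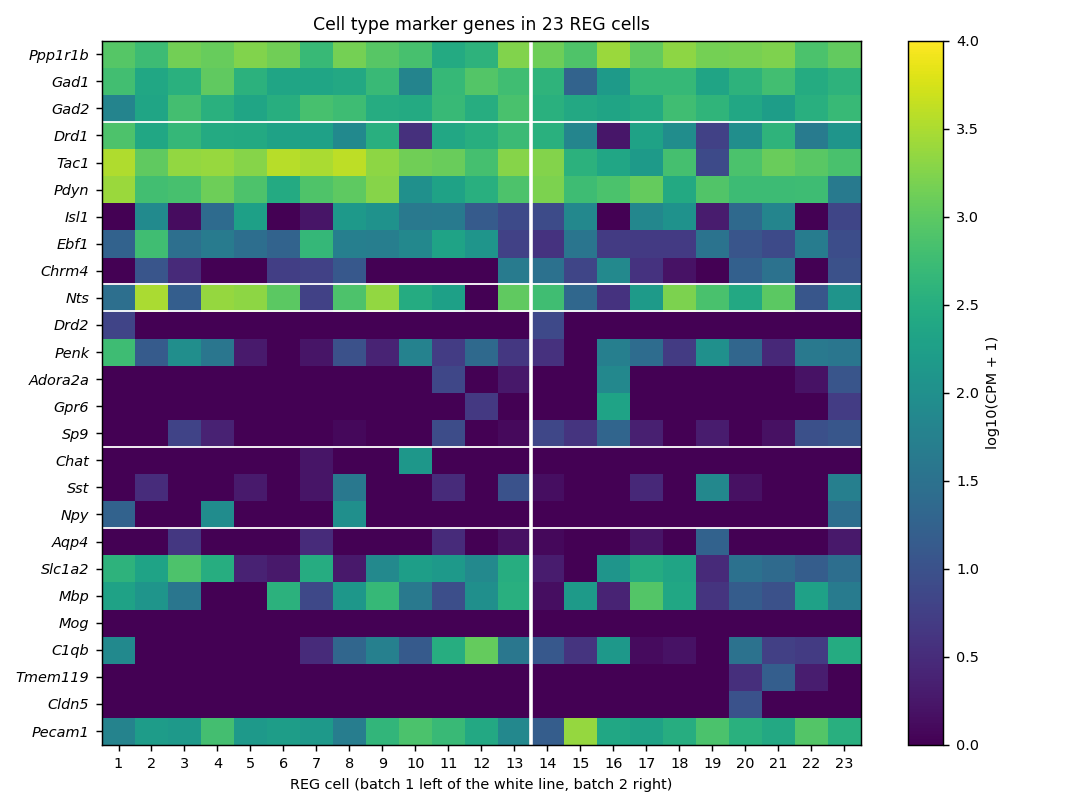
Heat map of log10(CPM + 1) for 26 marker genes (rows) in the 23 REG cells (columns, batch 1 on the left of the white line and batch 2 on the right). White horizontal lines part, from the top, GABAergic and spiny neuron genes, genes of the D1 class, *Nts*, genes of the D2 class, interneuron genes and genes of glia and vessels. *Ppp1r1b*, *Gad1*, *Gad2*, *Tac1* and *Pdyn* have counts in every column, whereas *Drd2* has counts in 2.

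All 17 listed genes of medium spiny neurons passed the expression filter (above 15 CPM in at least 5 cells, with a mean above 4 CPM), and 16 of them were detected in every cell. *Arpp21*, a cAMP-regulated phosphoprotein, was the highest of them after *Ppp1r1b*, with a median of 1026 TPM (transcripts scaled to the cell's total and to transcript length). *Rgs9*, a regulator of G-protein signalling, had a median of 362 TPM, and *Pde10a*, a striatal phosphodiesterase, of 324 TPM. *Scn4b*, a sodium channel beta subunit, was the member missed in 1 cell. Each of the 9 pan-neuronal genes passed the filter, and *Snap25*, a vesicle fusion protein, led them with a median of 783 TPM. The vesicular GABA transporter *Slc32a1* was low beside the GABA-synthesising enzymes, with a median of 6.87 TPM and counts in 18 cells. None of the 3 vesicular glutamate transporters passed the filter. *Slc17a7* had counts in 13 cells with a highest value of 27.5 CPM, *Slc17a8* in 15 cells with a highest value of 19.2 CPM, and *Slc17a6* in 2 cells.

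Markers of the D1 class were on average detected in more cells than those of the D2 class. All 7 genes of the D1 list passed the filter and their mean detection was 90.1% of cells, against 38.3% for the 5 genes of the D2 list that the table holds. The difference of 51.8 percentage points was 50.4 after thinning. Within single cells it ran from −8.57 to 85.7 points with a median of 60. *Tac1*, the precursor of substance P, had the highest level of the D1 list, with a median of 2513 TPM. *Pdyn*, the dynorphin precursor, followed with a median of 486 TPM, and both had counts in every cell. The transcription factor *Ebf1* was detected in all 23 cells at a median of 10.1 TPM, *Sfxn1* in 20, *Isl1*, a developmental regulator of D1 cells, in 19 and the muscarinic receptor *Chrm4* in 14. On the D2 side, *Drd2* had counts in 2 of 23 cells (8.70%, 1.07% to 28.0%) and never exceeded 6.50 CPM. *Penk*, the enkephalin precursor, was the most widely detected, with counts in 21 cells, a median of 13.2 CPM and 52.2% of its summed CPM in REG cell 1, where it stood at 576. *Sp9*, also on the D2 list, had counts in 13 cells and at most 19.5 CPM. *Tac1* exceeded *Penk* in 22 cells on the TPM scale, *Pdyn* exceeded *Penk* in 21 cells, and *Drd1* exceeded *Drd2* in all 23.

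REG cell 16 differed from the other cells in these genes. It held the lowest *Drd1* value, 0.721 CPM, no count of *Isl1*, and the highest values of *Gpr6*, at 208 CPM, of *Adora2a*, at 73.6 CPM, and of *Sp9*, at 19.5 CPM. *Gpr6* is an orphan receptor and *Adora2a* an adenosine receptor, both markers of the D2 class. This cell also had the highest value of *Chrm4*, a gene of the D1 list, 729 CPM of *Pdyn*, 234 CPM of *Tac1* and no count of *Drd2*. It held the fewest genes, 6143, and the largest mitochondrial share. Without it, mean detection was 90.9% for the D1 list and 36.4% for the D2 list. The lowest difference within a single cell was then −2.86 points, so REG cell 16 was not the only exception. REG cell 19 had 4.98 CPM of *Drd1* and the lowest *Tac1* value, 6.97 CPM, beside 824 CPM of *Pdyn*. It also had the second highest value of the D2 marker *Penk*, 101 CPM, which exceeded its *Tac1*. REG cell 10 had 2.56 CPM of *Drd1* and was the main source of *Chat*, the acetylcholine-synthesising enzyme, at 131 CPM, whereas *Slc18a3*, the vesicular acetylcholine transporter, had no count in any cell.

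Transcripts typical of other cell types were present in parts. The 12 interneuron markers had a mean detection of 22.5%, their summed level ran from 0 to 201 CPM with a median of 21.5, and only *Pvalb* passed the filter, with a median of 2.93 CPM. *Nos1* had counts in 16 cells and did not pass. The highest sum was that of REG cell 23, which held the highest *Nos1* value, 92.8 CPM, and 26.7 CPM of *Npy*. That cell also had 119 CPM of *Drd1*. Astrocyte markers summed to between 2.71 and 773 CPM with a median of 212. Of these 7 genes, 2 passed: *Slc1a2*, a glutamate transporter, had counts in 22 cells and *Aldoc*, a glycolytic enzyme, in 16. The water channel *Aqp4* did not pass, with counts in 8 cells and at most 16.9 CPM. The oligodendrocyte list summed to between 3.43 and 1126 CPM with a median of 114, and 4 of 9 genes passed. *Mbp*, a myelin protein, reached 843 CPM in REG cell 17, while *Mog*, another myelin gene, had no count in any cell. Microglial markers summed to between 0.341 and 1326 CPM with a median of 50.8, and the complement genes *C1qa*, *C1qb* and *C1qc* were the 3 of 7 that passed. REG cell 12 held the highest *C1qb* value at 1128 CPM, and *Tmem119*, a microglial membrane protein, had counts in 3 cells. The 8 endothelial and mural markers summed to between 18.9 and 2309 CPM. *Pecam1*, an adhesion molecule of endothelium at chr11:106654217-106750628, was detected in all 23 cells with a median of 257 CPM, whereas *Cldn5* and *Cdh5*, both endothelial junction genes, had counts in 1 cell each. The part of other cells in these values was not tested.

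Levels of different genes were compared on the deposited TPM scale, which divides by transcript length. *Lars2*, a mitochondrial leucyl-tRNA synthetase encoded in the nucleus at chr9:123366927-123462666, had the highest median at 106104 TPM. *Gm19220*, a processed pseudogene at chr12:40893485-40894287, came next at 62877 TPM. Below them the level dropped by about an order of magnitude, to 7467 TPM for *Gm20594*, 7172 for *Ccdc107* and 4936 for the pseudogene *Gm29216*. *Ccdc107* overlaps *Rmrp*, a noncoding RNA gene on the opposite strand, so its reads cannot be assigned without strand. Values of pseudogenes are uncertain where their sequence is shared with another gene. Whether the reads assigned to *Lars2* all come from its own transcript was not tested. Mitochondrially encoded subunits of the respiratory chain took 3 places of the first 20, with 4911 TPM for *mt-Co3*, 3898 for *mt-Co2* and 3184 for *mt-Atp6*. Among nuclear genes of known function were *Dock10*, a guanine nucleotide exchange factor, at 4552 TPM, *Pcp4*, a calmodulin-binding peptide, at 3297, *Ubb*, a ubiquitin gene, at 3090, and *Calm2*, a calmodulin gene, at 2592. *Tac1* ranked 13 of all genes, and was the only neuropeptide precursor among the first 20. *Ppp1r1b* ranked 27, with a median of 1451 TPM. *Fth1* (ferritin heavy chain), *Gapdh* (glycolysis), *Ppia* (a peptidyl-prolyl isomerase) and *Tmsb4x* (an actin-sequestering peptide) lay between 2054 and 2377 TPM. By CPM, which does not correct for length, *Dock10* had a median of 5872, followed by *Zrsr1* with 2931 and *Grip2*, a scaffold of AMPA receptors, with 2909. *Zrsr1* lies inside *Commd1* on the opposite strand.

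**Figure D2:**
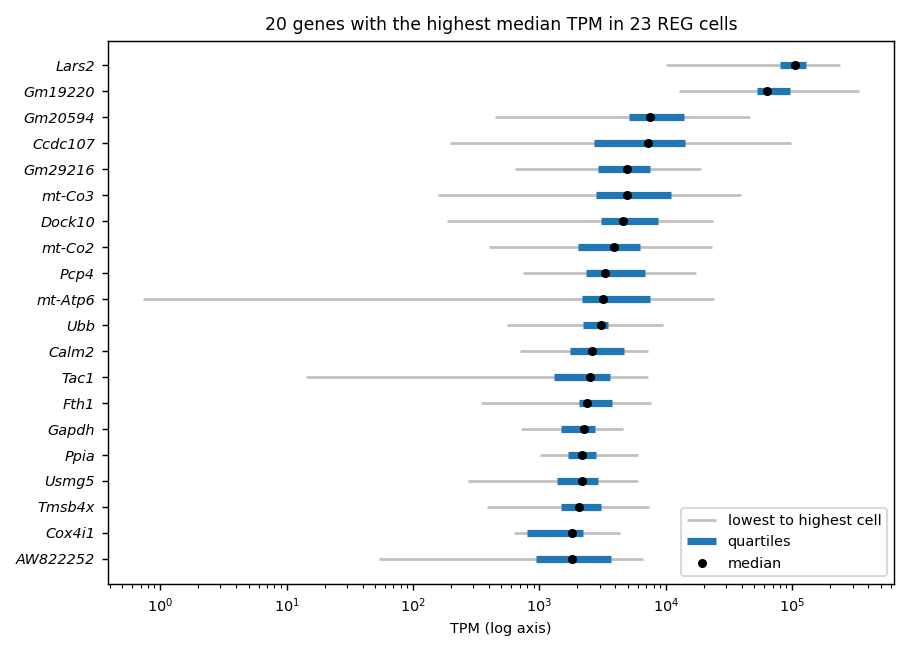
The 20 genes with the highest median TPM in the 23 REG cells, on a log axis, with the median (black point), the quartiles (blue bar) and the lowest and highest cell (grey line). *Lars2* and *Gm19220*, with medians of 106104 and 62877 TPM, lie about an order of magnitude above the next gene.

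Of 35825 genes in the table, 21609 had a count in at least 1 REG cell and 9005 (25.1%) passed the expression filter. The pass counts of lists are to be read against that share, and a count near it does not set a list apart. The genes detected in every cell numbered 1702, of which 1653 are annotated as protein coding. With all cells thinned to 150000 counts the number was 650, and 350 genes exceeded 15 CPM in every cell. At the other end, 3453 genes had counts in 1 cell only. The lists differed in how many members were detected everywhere: 69 of 85 cytosolic ribosomal protein genes, 18 of 22 genes of dopamine and cAMP signalling, 16 of 17 spiny neuron genes, 9 of 13 mitochondrially encoded genes and 8 of 11 genes of peptide processing. Fewer were detected everywhere among 41 peptide and hormone receptors (1), among 14 serotonin receptors (0), and among 48 voltage-gated and other potassium channel subunits (4). Over the whole table the count was 1702 of 35825 genes, so this contrast is between lists and not with all genes. *Rpl41* led the ribosomal protein genes with a median of 1791 TPM, and *Rpl39l* was the member with no count.

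Of 32 listed peptide precursors 24 had a count in at least 1 cell and 6 passed the filter, and 8 had no count in any cell (*Cort*, *Gal*, *Grp*, *Hcrt*, *Nmu*, *Pmch*, *Ucn* and *Ucn3*). For a gene without counts, 3 divided by 23 cells approximates the upper bound on the share of cells with a count, 13.04%. That bound is not the exact interval used above, and it does not limit the share of cells that express the gene. *Tac1*, *Pdyn* and *Nts* were the 3 highest, and *Nts* exceeded *Tac1* in 4 cells on the TPM scale. *Tac1* ran from 6.97 CPM in REG cell 19 to 3928 CPM in REG cell 8, with a median of 1215. *Pdyn* ran from 43.1 CPM in REG cell 23 to 2475 CPM in REG cell 1, with a median of 680 CPM. The medians of these genes lay at percentile 99.9, 98.1 and 98.1 of the genes that passed the filter on the TPM scale. Their promoter windows, 250 bases before to 50 bases after the start, are shown because they belong to the most abundant peptide precursors. The sequences are from RefSeq (GRCm38.p6), each 5′ to 3′ on the strand of its gene, with matches on either strand to TGACG or TGACNTCA, a short and a relaxed full form of the cAMP response element, in capitals.
Tac1: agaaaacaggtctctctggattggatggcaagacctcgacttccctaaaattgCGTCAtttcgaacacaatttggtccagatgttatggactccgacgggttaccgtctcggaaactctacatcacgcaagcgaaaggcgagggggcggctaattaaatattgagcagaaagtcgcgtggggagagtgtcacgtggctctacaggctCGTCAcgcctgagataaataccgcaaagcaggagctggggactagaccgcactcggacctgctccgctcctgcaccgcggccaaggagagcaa
Pdyn: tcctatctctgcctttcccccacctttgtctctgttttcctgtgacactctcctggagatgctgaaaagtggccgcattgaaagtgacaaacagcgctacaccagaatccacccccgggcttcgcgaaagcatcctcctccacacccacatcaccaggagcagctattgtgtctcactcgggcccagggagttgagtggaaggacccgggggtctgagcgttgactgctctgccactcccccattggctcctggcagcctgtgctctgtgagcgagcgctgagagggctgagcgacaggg
Nts: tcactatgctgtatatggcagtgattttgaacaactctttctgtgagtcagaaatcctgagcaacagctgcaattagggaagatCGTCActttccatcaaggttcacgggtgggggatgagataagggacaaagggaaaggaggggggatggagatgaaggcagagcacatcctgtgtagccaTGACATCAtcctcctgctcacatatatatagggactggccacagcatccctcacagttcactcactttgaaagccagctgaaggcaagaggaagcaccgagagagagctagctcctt
The *Tac1* window (chr6:7554811-7555110, plus strand) held 2 matches to TGACG and none to TGACNTCA. The *Nts* window (chr10:102490369-102490668, minus strand) held 1 of each, the TGACNTCA match starting 67 bases before the start used for the window. The GENCODE spans of *Tac1* and *Nts* begin at chr6:7554879 and chr10:102490486, inside these windows and upstream of the starts used. The distance therefore holds for the start of the window only. The *Pdyn* window (chr2:129699889-129700188, minus strand), the first of 2 listed for that gene, held neither. Of 32851 promoter windows of this length in the table, 20.8% held TGACG and 8.83% held TGACNTCA, and 889 held both. The motifs overlap, since a full element with G at the open position matches both. A match describes letters and not a bound site, and nothing follows from a missing one.

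Past these 3 genes the peptide values rested on fewer cells. *Cck*, the cholecystokinin precursor, had counts in 15 cells with a median of 49.1 TPM and its highest value, 555 CPM, in REG cell 23. *Penk* had a median of 22.9 TPM. *Nucb2*, the precursor of nesfatin, had counts in 11 cells. *Sst* (somatostatin) had counts in 11 cells and at most 73.7 CPM, and *Npy* (neuropeptide Y) in 4 cells and at most 96.0 CPM. *Cartpt* and *Crh* were each carried mainly by REG cell 11, at 148 and 163 CPM. *Pomc* had counts in 8 cells with a highest value of 57.7 CPM, and *Agrp* had an estimated count far below 1 in a single cell. *Oxt* had counts in 14 cells but never exceeded 13.7 CPM. The machinery that sorts and cleaves peptides was broadly present. Of 11 genes in this list 10 passed the filter, led by *Scg5*, a chaperone of the convertase PC2, with a median of 255 TPM. *Cpe* (carboxypeptidase E) had a median of 193 TPM, *Scg2* (secretogranin II) of 156, *Pcsk1n* of 111, *Chga* of 63.5 and *Chgb* of 50.7. The convertase *Pcsk2* was found in all 23 cells, whereas *Pcsk1* was found in 10 and did not pass.

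Among dopamine receptors *Drd1* was the single member that passed the filter, with quartiles of 35.4 and 141 TPM. *Drd3* had counts in REG cell 2 alone, at 173 CPM, and *Drd4* in REG cell 6 alone, at 58.3 CPM. *Drd5* had counts in 2 cells and at most 5.06 CPM. Of 14 serotonin receptors 5 passed. *Htr1b*, an inhibitory receptor, led with counts in 21 cells and a median of 17.1 TPM. *Htr2c* had a median of 3.69 TPM, *Htr4* of 1.98, *Htr2a* of 1.40 and *Htr1f* of 1.26, and each of these 4 had counts in 14 to 17 cells. *Htr2b* and *Htr3a* had no count. The histamine autoreceptor *Hrh3* was the highest of 13 adrenergic and histamine receptors, with counts in 18 cells and a median of 17.6 TPM. *Adra2c* and *Adrb1* also passed, which made 3 of 13 (23.1%, against 25.1% of all genes). Of 18 acetylcholine receptor genes 3 passed (16.7%), with *Chrm1* detected in 21 cells at a median of 6.10 TPM.

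Among receptors for opioids, cannabinoids and adenosine, 4 of 10 passed the filter. *Adora1*, the adenosine A1 receptor, had counts in 20 cells and a median of 12.8 TPM. *Oprk1*, the kappa receptor that binds dynorphin, had counts in 18 cells with a median of 3.01 TPM and an upper quartile of 41.2. *Cnr1*, the CB1 receptor, had counts in 14 cells and a median of 0.356 TPM, and *Oprl1*, the nociceptin receptor, in 12 cells. *Oprm1*, the mu receptor, had counts in 9 cells and at most 66.4 CPM, and *Oprd1*, the delta receptor, in 8 cells and at most 11.2 CPM. The mu and delta receptors did not pass.

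Of 41 peptide and hormone receptors 11 passed the filter and 11 had no count, and the share that passed over all 35825 genes was 25.1%. *Sort1*, a sorting receptor that also binds neurotensin, was the highest with counts in 22 cells and a median of 32.9 TPM. *Mchr1*, the receptor of melanin-concentrating hormone, had counts in 16 cells with a median of 17.5 TPM. *Nr3c1*, the glucocorticoid receptor, had a median of 10.9 TPM, *Npy1r* of 5.46, *Insr*, the insulin receptor, of 4.81 and *Nr3c2*, the mineralocorticoid receptor, of 4.26. *Ntsr1*, the high-affinity neurotensin receptor, had no count in any of the 23 cells. *Ntsr2* had counts in 7 cells and its highest value, 230.1 CPM, in REG cell 16. The leptin receptor *Lepr* had counts in 8 cells and never exceeded 4.65 CPM. *Mc4r*, the melanocortin receptor of the feeding circuit, had counts in 1 cell at 46.0 CPM, *Glp1r* in 1 cell at 0.944 CPM, and the ghrelin receptor *Ghsr* in none. The orphan receptor list held higher levels: 8 of 11 genes passed, among them *Gpr83* at a median of 84.9 TPM in 23 of 23 cells.

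Glutamate and GABA receptors carry the fast and some of the slow input of these cells. Of 9 AMPA and kainate subunits 7 passed. *Gria2*, the subunit that keeps AMPA receptors impermeable to calcium, had a median of 175 TPM and *Gria1* of 74.0, and both had counts in every cell. *Grin2b* had the highest median of the NMDA subunits at 299 TPM, *Grin1*, the obligatory subunit, had 70.1 TPM and *Grin2a* had 10.7 TPM. *Grm5*, a group I metabotropic receptor, led its family with 85.1 TPM, detected in 23 cells. Of 19 GABA-A subunits 11 passed, with *Gabrd*, a subunit of extrasynaptic receptors, at 75.9 TPM and *Gabra4* at 51.7. *Gabbr1*, a subunit of the GABA-B receptor, had a median of 85.1 TPM, whereas its partner *Gabbr2* had 0.664 TPM and did not pass.

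**Figure D3:**
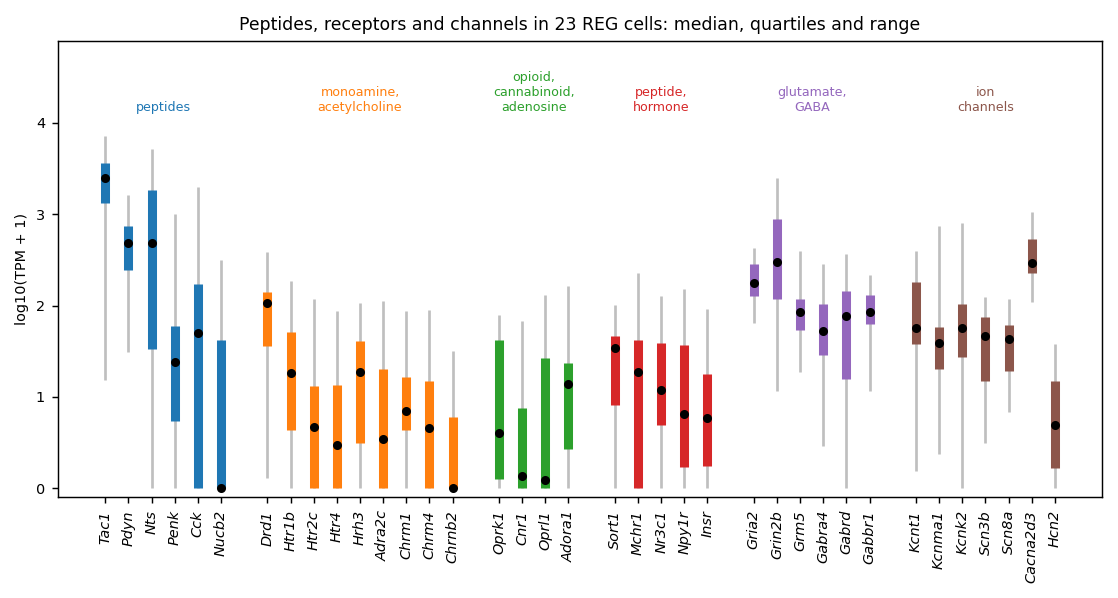
Levels of selected genes of peptides, receptors and channels in the 23 REG cells as log10(TPM + 1), with the median (black point), the quartiles (coloured bar) and the lowest and highest cell (grey line). *Tac1* (median 2513 TPM) is the highest gene shown, and *Pdyn* and *Nts* lie above every receptor shown by median, while *Penk*, *Cck* and *Nucb2* do not.

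Ion channels set the firing of spiny neurons, and their genes were detected unevenly. Of 48 voltage-gated and other potassium channel subunits 23 passed the filter. *Kcnt1*, a sodium-activated channel, had a median of 56.5 TPM, *Kcnma1*, the large-conductance calcium-activated channel, of 37.8, *Kcna1* of 29.3 and *Kcnq5* of 27.3. Among inward rectifier and two-pore channels 9 of 29 passed (31.0%, against 25.1% of all genes), with the two-pore channels *Kcnk2* at 55.4 TPM and *Kcnk1* at 41.0. The inward rectifiers *Kcnj4* and *Kcnj2* were lower, at 2.95 and 2.89 TPM. Of 15 sodium channel genes 9 passed, led by *Scn3b* at 45.3 TPM and *Scn8a* at 42.1. The auxiliary subunit *Cacna2d3* had a median of 290.0 TPM, the highest of 26 calcium channel genes, of which 16 passed, and the pore subunit *Cacna1e* had 33.9. *Hcn2*, a subunit that carries the hyperpolarization-activated current, had a median of 3.87 TPM. Of 22 TRP channels 6 passed (27.3%, near the 25.1% of all genes) and *Trpv2* was the highest at 28.8 TPM.

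Transcription factors known from striatal development were detected. *Foxp1* had a median of 196 TPM, *Meis2* of 177, *Rarb*, a retinoic acid receptor, of 98.1 and *Foxp2* of 97.2, each detected in 23 cells. *Rxrg*, a retinoid partner receptor, had 83.9 TPM. Of 28 factors listed 17 passed the filter and 2 (*Gsx2* and *Ikzf1*) had no count. All 22 genes of dopamine and cAMP signalling passed. Beside *Ppp1r1b* and *Arpp21* the highest were *Arpp19*, with a median of 478 TPM, *Rgs9*, with 362, and *Ppp1ca*, a catalytic subunit of protein phosphatase 1, with 332. *Gnal*, the G protein that couples D1 receptors to adenylyl cyclase, had 135 TPM and *Adcy5*, the main striatal adenylyl cyclase, 118.

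Differences between cells were described by spread, taken as the SD of log2(CPM + 1) over cells, for the 969 genes with a median of at least 100 CPM. This SD had a median of 1.60, with 0.89 and 2.52 at the 5th and 95th percentiles. *Ndn*, an imprinted gene of neuronal growth, had the widest spread (SD 3.43) with no count in 6 cells and up to 395 CPM. *Nts* followed (SD 3.39) and then *Fos* (SD 3.38), an immediate early gene that ran from 0 to 1316 CPM. *Arc* and *Dusp1*, both induced by neuronal activity, were also among the 15 most variable, with SDs of 2.99 and 2.91. *Arc* reached 1190 CPM and *Dusp1* 1648 CPM. The part of slicing, and of the current injected before the cytosol was taken, in the values of these genes was not tested. The chaperonin subunit *Cct5* (SD 3.18), *Gucy1a1*, a subunit of the nitric oxide receptor (SD 3.12), the adhesion molecule *Cntn3* (SD 3.07), *Bzw2* (SD 3.05) and the carrier *Slc25a25* (SD 3.04) completed the first 10 with these. The others of the 15 were *Tesc*, *Slc3a2*, *Ggnbp2*, *Vdac3* and *Slc2a13*. *Ndn*, *Nts* and *Fos* were among the 15 most variable genes in each of 9 alternatives tried, whereas *Ggnbp2* was in 3 and *Slc2a13* in 2. *Arc*, *Cntn3* and *Ggnbp2* were not among them when the SD was taken within batches. *Dusp1*, *Bzw2* and *Slc25a25* each overlap a protein-coding gene on the opposite strand, so their reads are uncertain without strand.

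**Figure D4:**
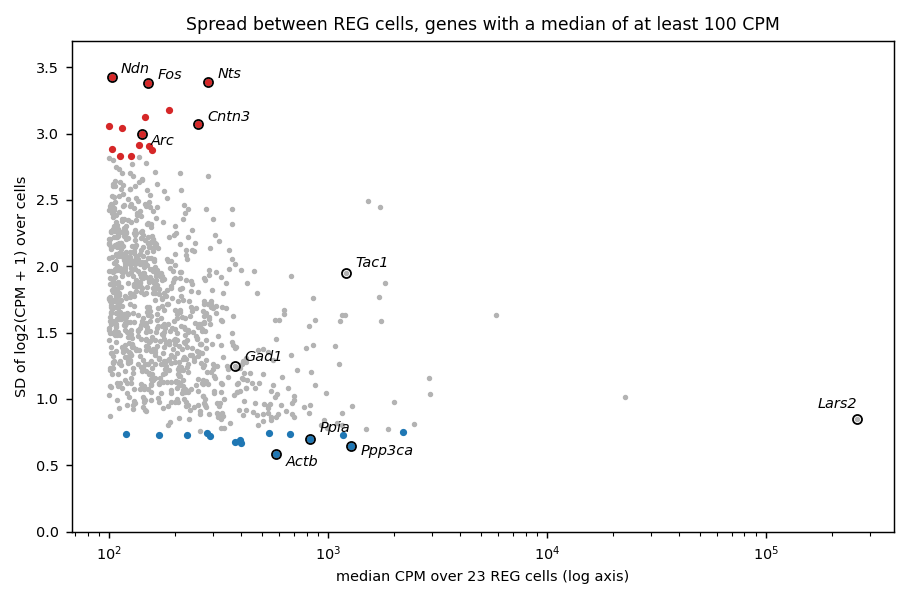
SD of log2(CPM + 1) over the 23 REG cells against the median CPM (log axis) for 969 genes, with the 15 most variable in red, the 15 least variable in blue and named genes ringed. *Ndn*, *Nts* and *Fos* lie at SDs of 3.38 to 3.43, and *Actb* lies lowest at 0.59.

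The least variable genes included some of the cytoskeleton, of calcium signalling and of synapses. *Actb*, beta-actin, had the smallest SD (0.59), with a lowest value of 327 CPM and a highest of 1604. *Ppp3ca*, the catalytic subunit of calcineurin, ran from 204 to 1741 CPM (SD 0.65). *Tpm3*, a tropomyosin, had an SD of 0.66, *Tsc22d1* of 0.67 and *Sptbn1*, a spectrin, of 0.69. The synaptic genes *Nrxn3*, *Nlgn1*, *Gria2* and *Gria1* had SDs of 0.73 to 0.74. *Ppia*, *Slc25a4*, *Hspa8*, *Slc30a9* and *Atp6v0c* were also among the 15. All 15 were detected in all 23 cells. Of the 9 alternatives, *Actb* and *Ppp3ca* stayed among the 15 least variable in 8, *Nlgn1* in 5, *Gria1* in 4 and *Slc30a9* in 3. Of the identity genes, *Gad2* (SD 0.78) and *Ppp1r1b* (SD 0.80) lay below the median SD of 1.60, *Gad1* had 1.24 and *Pdyn* 1.33, and *Tac1* (SD 1.95) and *Drd1* (SD 2.31) lay above it. A further 253 genes exceeded 100 CPM in at least 5 cells and had no count in at least 5 others. Ranked by the mean over cells with counts they began with *Cpsf1*, a subunit that processes mRNA ends (179 CPM, 6 cells without counts), the collagen gene *Col6a1* (161 CPM, 6 cells), *Ndn* (152 CPM, 6 cells), the deubiquitinase *Bap1* (148 CPM, 6 cells) and *Usp11* (147 CPM, 5 cells). Single cells weighed heavily on some of these means. REG cell 1, the shallowest at 176961 counts, gave 57.8% of the summed CPM of *Cpsf1* and 41.7% of that of *Bap1*. The top cell of *Col6a1* gave 14.7%. At this depth a cell without counts of these genes is not shown to lack them.

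The labelled batches were set side by side within the REG cells. Of the 9005 genes of the filter, 16.1% (1453) had a mean CPM at least 2-fold higher in batch 2 than in batch 1 and 16.3% (1471) at least 2-fold lower. The mice of the batches are not named, so batch and mouse cannot be told apart, and the values below are descriptions. Of the 7 genes of the D1 list 4 were at least 2-fold lower in batch 2 and 1 was higher. The mean of *Tac1* was 2222 CPM in batch 1 against 684 CPM in batch 2 (log2 ratio −1.70), and that of *Drd1* was 303 against 136 CPM (−1.16). *Sfxn1* (means of 83.2 and 29.5 CPM) and *Ebf1* (131 and 15.3 CPM) were the others, and *Chrm4* was the higher gene (1.51), but not when REG cells 16 and 17 were left out. *Pdyn* had means of 859 and 687 CPM. *Nts* had a median of 753 CPM in batch 1 and 207 in batch 2, and the batches overlapped over most of their range. None of the 17 spiny neuron genes and none of the 9 pan-neuronal genes differed 2-fold, and *Ppp1r1b* had means of 1005 and 1432 CPM. *Fos* went the other way, with a median of 14.3 CPM in batch 1 and 359 in batch 2 (log2 ratio of means 2.06). Of 13 mitochondrially encoded genes 9 were at least 2-fold higher in batch 2, which became 1 without REG cells 16 and 17. Of 11 peptide and hormone receptors that passed, 4 were at least 2-fold higher in batch 2, among them *Npy1r* (means of 27.4 and 91.3 CPM) and *Mchr1* (31.9 and 90.2 CPM). The median log2 ratio over all genes of the filter was 0.01 by CPM and 0.14 with TMM-scaled totals, and that of the D1 list was −1.16 and −1.01.

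No gene of the filter had every batch 2 cell above every batch 1 cell, and 9 (0.0999%) had every batch 2 cell below every batch 1 cell. *Cntn3* was the most abundant of these by mean, with 187 to 2883 CPM in batch 1 and 2.16 to 97.0 CPM in batch 2. It overlaps an antisense gene, and whether strand was used is not known. *AC168066.2* (0 to 1.73 CPM in batch 2, at least 36.3 in batch 1) and *Gm8454* (0 to 5.97 CPM against at least 51.3) showed the lowest ratios of mean CPM among the 8480 genes of the filter with counts in at least 5 cells of each batch. The other 6, named after their values were seen, were *C2cd4c*, *Gm15039*, *Gm15043*, *Gm15045*, *Gm42715* and *Tulp1*. In the opposite direction the largest ratios among those 8480 genes were those of *Hpcal1* (6.32 on the log2 scale), *Rasd1* (5.12), *Pop4* (4.88), *Sobp* (4.80) and *Gng4* (4.61), each with 12 to 20 cells detected.

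**Figure D5:**
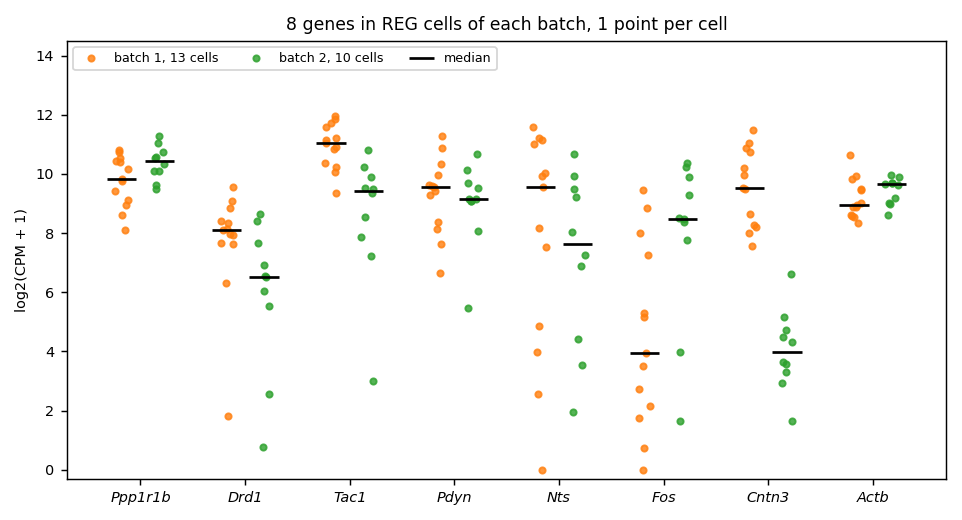
Values of 8 genes as log2(CPM + 1) in the 13 REG cells of batch 1 (orange) and the 10 of batch 2 (green), with 1 point per cell and a black line at the median. *Cntn3* is the only gene shown without overlap between batches, *Fos* is higher and *Tac1* lower in batch 2 by median, and *Ppp1r1b* and *Actb* overlap over most of their range.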

How the data were processed

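Single-cell libraries (SMART-Seq kits, Nextera XT) of 43 patched NAcLat→VTA cells were sequenced by the authors. The authors pseudo-aligned reads with kallisto to the mouse GRCm38 transcriptome and deposited estimated counts and TPM per gene, after leaving out cells with few reads or genes. Names of tool and build are also in the submitters' processing notes, and the strand setting is not given in the sources used here. Of the 23 REG cells, 1.05% of the positive estimated counts lay below 1, and detection means any count above 0. CPM was count divided by column total, times 1000000. Counts were rounded only for thinning. Genes passed the filter at above 15 CPM in at least 5 cells with a mean above 4 CPM. Levels between genes used TPM, and spread used log2(CPM + 1).

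Positions and biotypes came from GENCODE M21 (GRCm38), matched by unique symbol. Alternatives used TMM (edgeR 4.0.16) and DESeq2 1.42.0 size factors in R 4.3.3, other scripts ran in Python 3.11.15 with pandas 2.3.3, and the ranking by spread was tested on simulated data. The labels name no mouse, so the REG cells are 1 sample without a test. Doublets were not called, since each library is 1 pipette aspirate. Genes named in the text were all members of marker lists, the first 20 by TPM or CPM, up to 6 of each family by median TPM (all members for peptides and for dopamine, opioid, cannabinoid, serotonin and appetite-peptide receptors) with members without counts, the 15 most and least variable, the first 15 by mean among genes on in some cells and absent in others, and the 5 highest and lowest batch ratios. Members and lists were chosen with earlier results of these data known. Some members of the named lists are not reported here.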

Additional observations from a re-analysis of the deposited data

How the results depend on the processing

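No paired analysis was possible because no label ties a cell to a mouse and cell numbers follow accession order only. Apart from leaving out single cells, 69 alternative values stayed within 1 SD over the cells or within 1.5 times a count and 13 did not. This rule is loose, because the SD over cells is wide. The *Nts* median counted as having stayed at 753 CPM in batch 1 cells alone, against 285 CPM. Sharing 10 of the 15 most variable genes counted so too. The tally therefore does not show that the values are stable. Genes passing the filter (9005) became 21609 with no filter and 5488 in batch 2 cells alone. Genes detected in every cell (1702) became 650 after thinning, 577 at 5 counts or more, 350 above 15 CPM and 2892 in the fewer cells of batch 2. The median *Lars2* share was 10.6% of TPM against 26.2% of counts, the median number of genes per cell 7799 after thinning against 10222, and the *Gad2* median 108 TPM against 325 CPM, which differ by the length correction. Of the 15 most variable genes 4 were shared when the median minimum was 50 CPM. Of the 15 least variable 8 were shared by TPM and 4 by interquartile range. Genes at least 2-fold higher in batch 2 numbered 2772 by the ratio of medians, against 1453 by means. Mitochondrially encoded genes at least 2-fold higher in batch 2 fell in number from 9 to 1 without REG cells 16 and 17, a setting chosen after seeing the data, as was leaving out REG cell 16 from the D1 and D2 lists. With *Lars2* and *Gm19220* left out of the totals the median of *Nts* was 606 CPM against 285 and that of *Drd1* 332 CPM against 201. The *Drd1* median was 91.5 CPM in batch 2 alone, and the *Nts* mean was 764 CPM. Leaving out each cell in turn moved the median CPM of *Drd1* between 201 and 222, *Gad1* between 377 and 385, *Gad2* between 318 and 326, *Nts* between 272 and 437 and *Ppp1r1b* between 1133 and 1227. The shallowest cell held 176961 counts, so genes of a few CPM could not be detected evenly across cells.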
